A study of Mus musculus with 4 samples.

Results

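The 10 macrophage markers described here were Lyz2, Csf1r, Itgam, Cd163, Mrc1, Folr2, Cd68, Lgals3, Gpnmb and Trem2. They were taken by symbol from the deposited gene table, which lists 24054 symbols. All 10 were found, and all 10 had enough counts to be among the 13652 genes tested. The soleus, a slow postural muscle of the hindlimb, was collected at the 12-month endpoint from female *mdx* mice on the C57BL/10ScSn background, and its RNA was sequenced. These mice lack full-length dystrophin and are the common mouse model of Duchenne muscular dystrophy. In the mCDC group, mouse cardiosphere-derived cells at passage 5 were infused into the femoral vein every month from 8 weeks of age. Cardiosphere-derived cells grow out of explanted heart tissue, and those used here were expanded from the heart of a C57BL/10ScSn/J mouse, which carries normal dystrophin. In the vehicle group, *mdx* mice of the same starting age received the same medium (IMDM) without cells on the same schedule. Each group had 2 muscles, named replicates 1 and 2, and muscle of mice with normal dystrophin was not analysed here. Nothing in the labels says how the 4 muscles relate to cages or days, so p-values measure the spread between these samples only.

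Macrophages are phagocytes that enter muscle after fibers break and clear the debris. In *mdx* muscle fibers break and regenerate throughout life, so that macrophages of several states lie side by side between the fibers. Cells newly made from blood monocytes carry inflammatory genes, resident cells of the connective tissue carry scavenger receptors, and cells that have taken up dead material raise lysosomal and lipid-handling genes. Survival of most of them depends on the CSF1 receptor. The markers were grouped by these roles: genes of the whole lineage (Lyz2, Csf1r, Itgam), scavenger and uptake receptors of resident cells (Cd163, Mrc1, Folr2), and genes of phagocytosis, lysosomes and lipid-laden cells (Cd68, Lgals3, Gpnmb, Trem2).

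Each library held from 22481391 to 27187425 expected counts in all, and levels are given as CPM, counts divided by the library size in units of 1e6 reads after scaling by the trimmed mean of M-values. Differences were tested with edgeR's quasi-likelihood F-test over all 13652 genes, and a gene was called when its fold change exceeded 1.5 and its unadjusted p lay under 0.05. By this rule 1.26% of tested genes were higher and 2.74% lower in mCDC muscles, and none had a Benjamini-Hochberg adjusted p under 0.05 with edgeR (947 had an unadjusted p under 0.05). DESeq2, which tested a larger set of 18132 genes, gave 48 with an adjusted and 718 with an unadjusted p under 0.05. For a single gene, the exact two-sided permutation test on 2 against 2 libraries cannot go below p = 0.333. Vehicle replicate 2 stood apart from the other 3 libraries in genes of vessels, connective tissue and blood. It had 317 CPM summed over 9 endothelial markers, against 142 to 179 CPM in the others, and 658 CPM over 9 markers of fibro-adipogenic progenitors, the connective tissue cells of muscle, against 365 to 413 CPM. Vehicle replicate 1 was the highest library for all 7 adipocyte markers. Their median log2 fold change was -0.18 with all libraries and 1.07 without vehicle replicate 1. Among them Car3 and Adipor2 differed less between libraries, with the highest 1.52 and 1.115 times the lowest, against 7.03 times for Plin1. Car3 made up most of the summed list, at 8756 of 8894 CPM in vehicle replicate 1. Differences of the macrophage markers are therefore also given or plotted with vehicle replicate 1 and vehicle replicate 2 each left out. As whole muscle was sequenced, fewer macrophages and less RNA per macrophage cannot be told apart. The defining macrophage genes were present at low levels. Adgre1 (listed under its older symbol Emr1), which encodes F4/80, had 0.365 to 1.46 CPM, Cd14 had 0.572 to 1.10 CPM, Mertk had 1.46 to 3.17 CPM, Cx3cr1 had 0.458 to 1.55 CPM, and Fcgr1 had 0.267 to 0.509 CPM and was not tested.

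The 10 markers did not move together between mCDC and vehicle muscles. 1 was called higher in mCDC muscles (Cd68, beside 1.26% of all tested genes), 1 was called lower (Csf1r, beside 2.74%), and 8 were not called. Fitted log2 fold changes, mCDC over vehicle, were above 0 for 3 markers and below 0 for 7, with a median of -0.17, while the median over all tested genes was -0.01. In no marker did both mCDC libraries lie above both vehicle libraries, and in 2 (Csf1r and Cd163) both lay below, where 19.2% and 19.5% of all tested genes were separated in these ways. In either direction, 2 of the 10 were separated, beside 38.7% of all tested genes. An unadjusted p under 0.05 was reached by 2 of 10, Cd68 and Csf1r, beside 6.94% of all tested genes. With all 4 libraries no marker passed adjustment over all genes, and values of adjusted p by edgeR ran from 0.700 to 0.953. The highest library was mCDC replicate 2 for Cd68, Lgals3, Gpnmb and Itgam, vehicle replicate 2 for Lyz2, Csf1r, Mrc1, Folr2 and Trem2, and vehicle replicate 1 for Cd163.

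**Figure D1:**
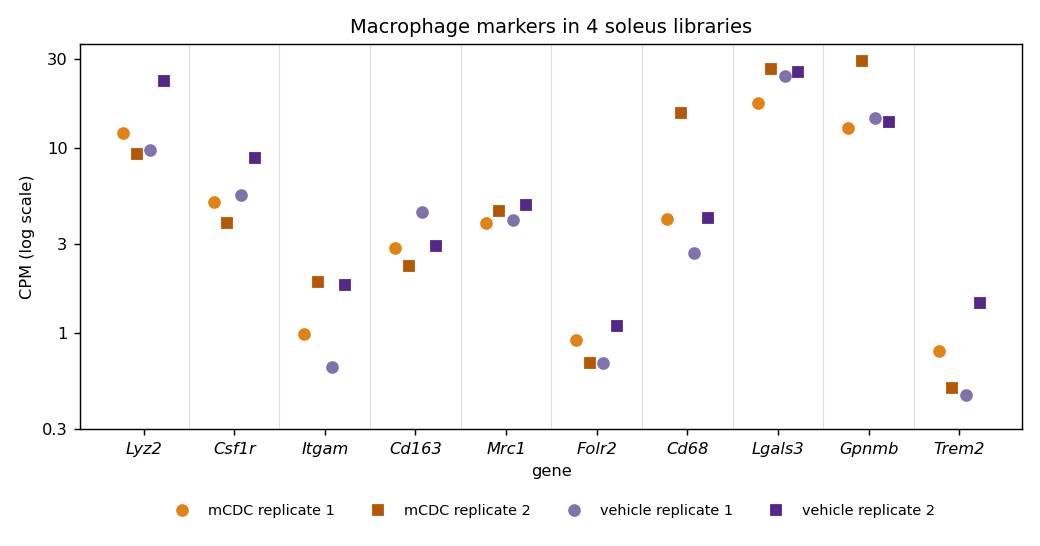
Level of each of the 10 macrophage markers in CPM (log scale) in the 2 mCDC libraries (orange) and the 2 vehicle libraries (purple), with circles for replicate 1 and squares for replicate 2. Cd68 and Gpnmb stand out in mCDC replicate 2, at 15.4 and 29.5 CPM, and Lyz2 and Trem2 in vehicle replicate 2, at 22.9 and 1.46 CPM.

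Lyz2 encodes the lysozyme of macrophages and neutrophils and is the gene whose locus drives the LysM-Cre allele. In GRCm38 it lies at chr10:117277541-117282272 on the minus strand. It had 12.0 CPM in mCDC replicate 1, 9.23 CPM in mCDC replicate 2, 9.69 CPM in vehicle replicate 1 and 22.9 CPM in vehicle replicate 2. Vehicle replicate 2 was high and the other 3 libraries lay close together, so that the groups overlapped. Its log2 fold change was -0.62 (standard error 0.36, 95% interval -1.46 to 0.22, adjusted p = 0.747 by edgeR's quasi-likelihood test), and without vehicle replicate 2 it was 0.13.

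Counts of Lyz2 carry a further uncertainty, because Lyz1, the lysozyme gene of intestinal Paneth cells, lies beside it at chr10:117287795-117292868 and has nearly the same sequence. Over 444 coding bases the genes differ at 22, an identity of 95%, and 32.8% of the 31-base words in Lyz2 transcripts also occur in Lyz1, so that RSEM had to divide reads from such stretches between them. The stretch around their longest identical run of 118 bases, coding bases 261 to 408, is shown from the GENCODE transcripts with the 5 bases that differ in capitals. A read that falls wholly inside the identical run cannot be given to either gene by its sequence. In the genome the Lyz2 stretch spans chr10:117278160-117280681 and the Lyz1 stretch chr10:117288622-117291069, introns included, both on the minus strand of GRCm38.
Lyz2: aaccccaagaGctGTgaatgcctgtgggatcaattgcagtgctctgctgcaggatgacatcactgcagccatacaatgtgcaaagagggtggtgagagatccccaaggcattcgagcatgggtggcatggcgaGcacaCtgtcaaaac
Lyz1: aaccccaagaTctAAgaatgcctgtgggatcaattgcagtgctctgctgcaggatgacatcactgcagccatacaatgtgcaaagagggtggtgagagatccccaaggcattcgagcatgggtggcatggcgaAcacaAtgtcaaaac
Lyz1 was listed at 1.93 and 2.06 CPM in mCDC replicates 1 and 2 and at 1.15 and 3.42 CPM in vehicle replicates 1 and 2. The sum of both genes, computed after their values were seen, came to 13.9 and 11.3 CPM in mCDC muscles and 10.8 and 26.3 CPM in vehicle muscles. In the sum, as in Lyz2, vehicle replicate 2 was high and the other 3 libraries lay close together, and Lyz1 took between 10.6% and 18.2% of the sum in each library.

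Csf1r encodes the receptor for CSF1 and IL-34, the signal on which macrophages depend. It had 5.11 and 3.93 CPM in mCDC replicates 1 and 2, and 5.57 and 8.84 CPM in vehicle replicates 1 and 2. Both mCDC libraries lay below both vehicle libraries, but mCDC replicate 1 and vehicle replicate 1 were close. The means were 4.52 ± 0.84 CPM in mCDC and 7.21 ± 2.31 CPM in vehicle muscles (SD, n = 2 each). Csf1r was called lower, at a log2 fold change of -0.67 (standard error 0.28, 95% interval -1.32 to -0.02, unadjusted p = 0.0458, adjusted p = 0.714 by edgeR's quasi-likelihood test). The call rested on single libraries: without vehicle replicate 2 the log2 fold change was -0.30 and without mCDC replicate 2 it was -0.50, neither of them called. With all 4 libraries Csf1r was not called by DESeq2 either, where p was 0.0562. The edgeR call was also lost with the replicate number as a block (-0.64) and without a filter on low counts (-0.67).

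Itgam encodes CD11b, the integrin alpha chain by which myeloid cells bind complement-coated particles. Its levels were 0.985 and 1.87 CPM in mCDC replicates 1 and 2 and 0.649 and 1.82 CPM in vehicle replicates 1 and 2. Replicate 2 was the higher library in both groups, and the groups overlapped. The log2 fold change of 0.18 had a 95% interval of -1.05 to 1.41, and its sign turned to -0.33 without mCDC replicate 2 and to -0.36 without vehicle replicate 1, while it was 1.11 without vehicle replicate 2. At chr7:128062640-128118491, 67.2% of the 31-base words of Itgam transcripts are also annotated to Gm49368, an overlapping gene model, and the division of reads between them is uncertain.

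Among the receptors of resident cells, Cd163 encodes the scavenger receptor for haptoglobin-haemoglobin complexes (chr6:124304636-124330529). Cd163 had 2.88 and 2.28 CPM in mCDC replicates 1 and 2, against 4.50 and 2.95 CPM in vehicle replicates 1 and 2. Both mCDC libraries were below both vehicle libraries, though mCDC replicate 1 and vehicle replicate 2 nearly met. A log2 fold change of -0.52 (standard error 0.30, 95% interval -1.22 to 0.18, adjusted p = 0.747 by edgeR's quasi-likelihood test) was not called. Unlike Csf1r, its largest difference came without vehicle replicate 2, at -0.80, and its smallest came without vehicle replicate 1, at -0.18. In vehicle replicate 1, where Cd163 was highest, each of the 7 adipocyte markers was highest too, with Plin1 at 5.11 CPM there and 0.728 to 2.60 CPM in the other libraries. The part of fat content in the level of Cd163 was not tested.

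Mrc1 encodes CD206, the mannose receptor that takes up glycoproteins and collagen fragments (chr2:14229414-14332023). Its levels, 3.94 and 4.52 CPM in mCDC replicates 1 and 2 and 4.08 and 4.88 CPM in vehicle replicates 1 and 2, were the most even of the 10 markers, with the highest library 1.24 times the lowest. The groups overlapped, and the log2 fold change of -0.09 had a 95% interval of -0.63 to 0.46 or 0.645- to 1.38-fold. Its sign was not fixed: removal of a trend with transcript length and GC content gave 0.07, and values without a single library ran from -0.20 to 0.05. Folr2 encodes folate receptor beta, carried by resident macrophages around vessels (chr7:101839988-101857190). It had 0.909 and 0.685 CPM in mCDC replicates 1 and 2, and 0.687 and 1.09 CPM in vehicle replicates 1 and 2. No library was far from the rest, and the groups overlapped. These levels rest on 15 to 30 counts per library, and the 95% interval of the log2 fold change (-0.15), from -1.15 to 0.86 or 0.450- to 1.81-fold, is wide. Without vehicle replicate 2 its value was 0.22.

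Cd68 encodes a heavily glycosylated protein of late endosomes and lysosomes and is the usual histological marker of macrophages (chr11:69664213-69666170, minus strand). It had 4.13 CPM in mCDC replicate 1, 15.4 CPM in mCDC replicate 2, 2.71 CPM in vehicle replicate 1 and 4.15 CPM in vehicle replicate 2. mCDC replicate 2 was far above the other 3 libraries, while mCDC replicate 1 lay just under vehicle replicate 2. The group means were 9.76 ± 7.97 CPM in mCDC and 3.43 ± 1.02 CPM in vehicle muscles (SD, n = 2 each). Cd68 was called higher, at a log2 fold change of 1.49 (standard error 0.55, 95% interval 0.24 to 2.75, unadjusted p = 0.0254, adjusted p = 0.700 by edgeR's quasi-likelihood test). Without mCDC replicate 2 the log2 fold change was 0.27 and was not called. It was called when mCDC replicate 1 was left out, at 2.16, and not when either vehicle replicate was left out (1.23 and 1.84). Such fits hold a lone library in 1 group and measure no spread there. With all 4 libraries the p of Cd68 by DESeq2 was 0.0963.

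The high level of Cd68 in mCDC replicate 2 was not shared by the macrophage markers as a group, so the neighbours of Cd68 on chromosome 11, chosen after the value was seen, were examined. Eif4a1, a translation initiation factor on the same strand, ends 765 bases upstream of the start of Cd68. Its levels were 187 and 284 CPM in mCDC replicates 1 and 2 and 163 and 142 CPM in vehicle replicates 1 and 2. mCDC replicate 2 was again the highest library, and here both mCDC libraries were above both vehicle libraries, with a log2 fold change of 0.62 that was called (adjusted p = 0.664 by edgeR's quasi-likelihood test). That call was lost without mCDC replicate 2, at 0.29, and without vehicle replicate 2, at 0.53. The level of Cd68 was 2.21% and 5.41% of that of Eif4a1 in the mCDC libraries, replicate 1 first, against 1.66% and 2.92% in the vehicle libraries. Mpdu1, on the other side of Cd68, had 5.08 and 4.93 CPM in mCDC and 5.50 and 5.97 CPM in vehicle muscles. No 31-base word of Cd68 occurs in another annotated gene, and whether reads running on from Eif4a1 reached Cd68 was not tested.

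The 250 bases before the start of Cd68, chr11:69666171-69666420 on the minus strand, lie in the gap between Cd68 and Eif4a1. They are shown beside the same window of Lyz2, chr10:117282273-117282522 on the minus strand, since Cd68 was highest in mCDC replicate 2 and Lyz2 in vehicle replicate 2. Both are RefSeq promoter windows of GRCm38. Capitals mark TGANTCA, the AP-1 motif, in Cd68 and AGGAAGT or its reverse complement, the core motif of the myeloid factor PU.1, in Lyz2.
Cd68: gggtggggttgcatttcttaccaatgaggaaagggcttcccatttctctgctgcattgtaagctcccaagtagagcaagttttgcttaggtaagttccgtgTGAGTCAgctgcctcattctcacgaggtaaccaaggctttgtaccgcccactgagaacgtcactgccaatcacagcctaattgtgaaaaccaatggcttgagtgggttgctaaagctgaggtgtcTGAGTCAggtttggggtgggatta
Lyz2: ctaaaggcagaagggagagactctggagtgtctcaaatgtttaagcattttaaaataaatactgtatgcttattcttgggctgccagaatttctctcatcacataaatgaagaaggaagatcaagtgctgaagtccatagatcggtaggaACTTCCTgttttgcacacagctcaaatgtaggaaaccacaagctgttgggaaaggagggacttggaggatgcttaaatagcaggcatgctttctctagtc
On either strand, AGGAAGT was found in windows of 3 of the 9 markers with a promoter entry (Mrc1, Lyz2, Folr2), against 7.69% of 32851 promoter windows of the same length. TGANTCA was found in 3 (Cd68, at 2 places, and Trem2 and Folr2), against 6.75%, and CACGTG, the E-box read by lysosomal regulators of the TFEB family, in 0 of 9 against 6.02%. A match of letters is a description and was not tied to the levels.

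Lgals3 encodes galectin-3, a galactoside-binding lectin that macrophages secrete in quantity in injured muscle (chr14:47373860-47386167). It had 17.4 and 26.5 CPM in mCDC replicates 1 and 2, and 24.3 and 25.6 CPM in vehicle replicates 1 and 2. Here mCDC replicate 1 was low and the other 3 libraries agreed closely, and the groups overlapped. On the log2 scale the difference was -0.19 (95% interval -0.68 to 0.30, adjusted p = 0.844 by edgeR's quasi-likelihood test), and without mCDC replicate 1 it was 0.09.

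Gpnmb encodes a lysosomal glycoprotein that is strongly induced in lipid-laden macrophages (chr6:49036518-49058182). It had 12.8 CPM in mCDC replicate 1 and 29.5 CPM in mCDC replicate 2, and 14.5 and 13.8 CPM in vehicle replicates 1 and 2. As with Cd68, mCDC replicate 2 alone was high, and mCDC replicate 1 was the lowest of the 4. The log2 fold change of 0.57 (standard error 0.34, 95% interval -0.20 to 1.35, adjusted p = 0.747 by edgeR's quasi-likelihood test) was not called. It was 1.06 and called without mCDC replicate 1 (adjusted p = 0.0540 by the same edgeR test), and -0.14 without mCDC replicate 2.

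Trem2 encodes the lipid-sensing receptor that drives the lysosomal and lipid-handling state of tissue macrophages (chr17:48346401-48352276). It was a low gene, with 21 and 11 counts in mCDC replicates 1 and 2 and 12 and 40 counts in vehicle replicates 1 and 2, or 0.795, 0.502, 0.458 and 1.46 CPM. Vehicle replicate 2 was the highest library, as for Lyz2 and Csf1r, and vehicle replicate 1 was the lowest. Exact 95% Poisson intervals, which cover counting error only, were 13 to 32.1 and 5.49 to 19.7 counts in the mCDC libraries and 6.20 to 21.0 and 28.6 to 54.5 counts in the vehicle libraries, so that the vehicle replicates differed beyond counting error. The log2 fold change of -0.55 had a 95% interval of -1.92 to 0.83, and it went from -1.14 without vehicle replicate 1 to 0.52 without vehicle replicate 2.

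**Figure D2:**
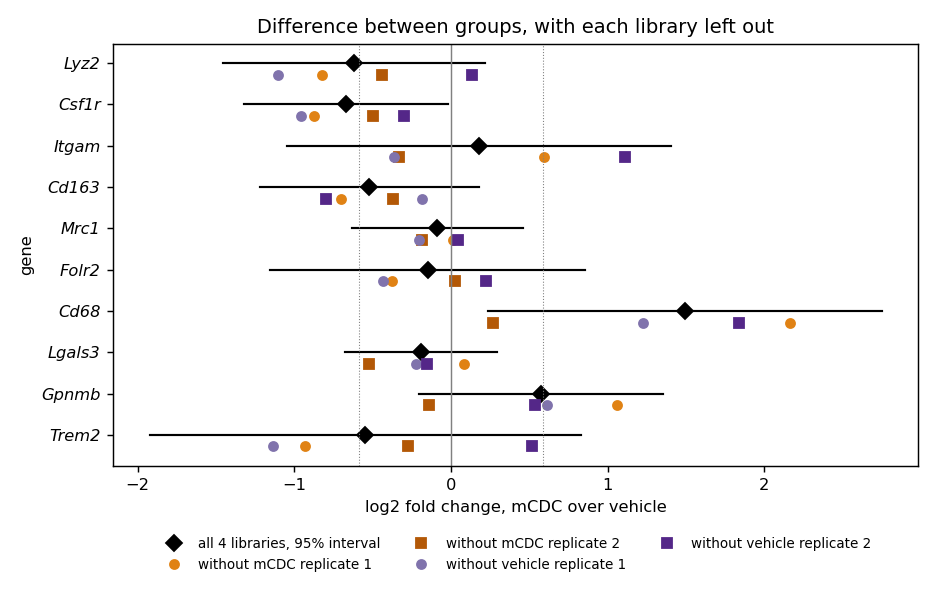
Log2 fold change of each marker, mCDC over vehicle, from all 4 libraries (black diamonds, with 95% intervals as lines) and from fits that each lack a single library (coloured points), with dotted lines at a 1.5-fold change in either direction. The intervals of Cd68 and Csf1r exclude 0, and Cd68 falls to 0.27 without mCDC replicate 2 (dark orange squares) while Csf1r comes to -0.30 without vehicle replicate 2 (dark purple squares).

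Leaving out a library thus changed which markers were called, and it changed the number of calls over all genes as well, from 172 higher and 374 lower with all libraries. Without mCDC replicate 1, Cd68 and Gpnmb were called higher and Lyz2 and Csf1r lower, beside 396 genes higher and 544 lower in all. Without mCDC replicate 2, none of the 10 was called in either direction, beside 112 and 237 genes. Without vehicle replicate 1, Lyz2, Csf1r and Trem2 were called lower, beside 273 genes higher and 834 lower. Without vehicle replicate 2, Cd163 was called lower and no marker higher, beside 216 genes higher and 350 lower. The median log2 fold change of the 10 markers lay between -0.30 and -0.18 in the 3 fits that kept vehicle replicate 2 and was 0.18 in the fit that did not.

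Summed over the 10 markers, mCDC replicates 1 and 2 had 61.0 and 94.4 CPM and vehicle replicates 1 and 2 had 67.2 and 87.6 CPM. In each group replicate 2 was higher, and the groups overlapped. Leaving Cd68 and Gpnmb out of the sum, a choice made after their values were seen, gave 44.0 and 49.5 CPM in mCDC muscles and 49.98 and 69.6 CPM in vehicle muscles. As these 2 genes were left out for being high in mCDC replicate 2, the fall of that library was set by the choice. Without Cd68 alone the sums were 56.9 and 79.0 CPM in mCDC and 64.5 and 83.4 CPM in vehicle muscles, replicate 1 first. In both smaller sums vehicle replicate 2 was highest. Lgals3, kept in both, was also higher in mCDC replicate 2 (26.5 CPM) than in mCDC replicate 1 (17.4 CPM).

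To compare markers with one another, counts were divided by transcript length and scaled to a total of 1e6 per library. On this length-scaled level Lgals3 was the most abundant marker, with a mean over the 4 libraries of 35.1 and a range of 24.97 to 39.3. Lyz2 followed with a mean of 21.8, Cd68 with 11.1, Gpnmb with 10.01, Csf1r with 3.23, Mrc1 with 1.72, Trem2 with 1.57, Cd163 with 1.52, Folr2 with 1.48 and Itgam with 0.60. The ranges of neighbours in this order were separate between Gpnmb and Csf1r, between Csf1r and Mrc1 and between Folr2 and Itgam, and they overlapped between all other neighbours. Cd68 was above Gpnmb in 1 of 4 libraries, mCDC replicate 2, and Mrc1, Trem2, Cd163 and Folr2 could not be put in an order. The 4 genes of secreted or lysosomal products (Lgals3, Lyz2, Cd68, Gpnmb) thus had higher mean transcript levels than the 6 genes of surface receptors.

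The other genes of the macrophage programme were read from 6 lists with 90 tested genes. Of these, 1 was called higher (beside 1.26% of all tested genes) and 4 were called lower (beside 2.74%). A log2 fold change below 0 was found in 60, as in 51.6% of all tested genes, and the median was -0.19. Calls within each list below are to be read beside the same shares. Vehicle replicate 2 was the highest library for 55 of the 90, or 61.1%, against 29.4% of all tested genes, and for 5 of the 10 markers. Without vehicle replicate 2, 4 of the 90 genes were called higher (Cx3cr1, Spi1, Lilrb4 and Ccl2) and 1 lower, beside 216 and 350 over all genes. Without vehicle replicate 1, 2 were called higher and 22 lower, beside 273 and 834 over all genes.

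**Figure D3:**
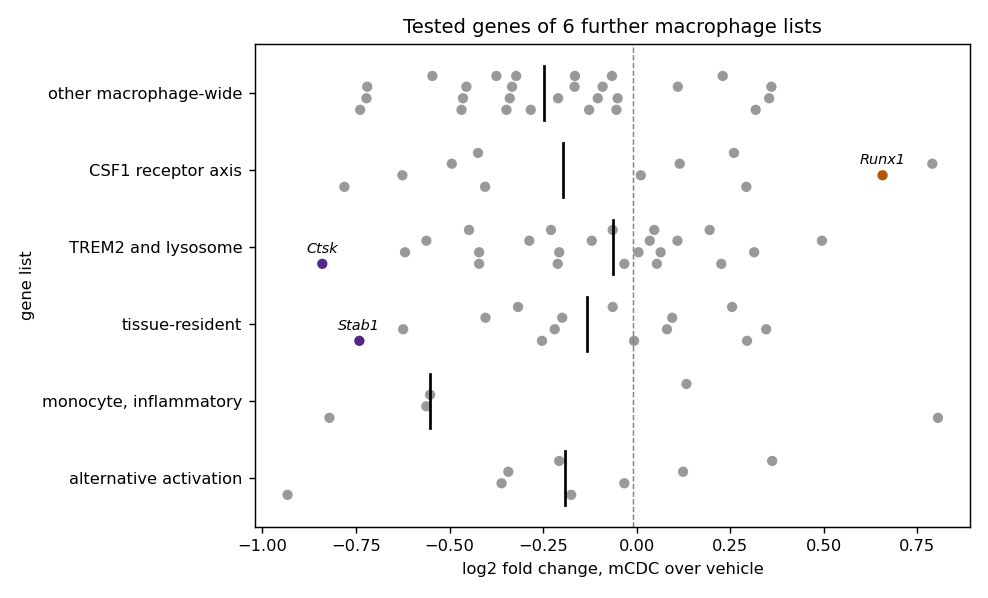
Log2 fold change, mCDC over vehicle, of the tested genes in 6 further macrophage lists (points; 2 of the 5 called genes are not shown), with the list median as a black bar and the median over all tested genes (-0.01) as a dashed line. Called genes are coloured and named: Ctsk (-0.84) and Stab1 (-0.74) were lower, Runx1 (0.66) was higher, and the list medians run from -0.55 to -0.06.

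Next to Csf1r stood its axis: the ligands, the GM-CSF receptor chains and the transcription factors of the lineage. Of 12 tested genes 1 was higher (Runx1), 1 was lower and 10 were not called, with a median log2 fold change of -0.20. Runx1, which encodes a factor of blood cell development that damaged muscle fibers also express, had 18.8 and 30.7 CPM in mCDC and 18.2 and 13.2 CPM in vehicle muscles. Its log2 fold change of 0.66 was called in 2 of the 4 fits with a library left out and was 0.26 without mCDC replicate 2 and 0.44 without vehicle replicate 2. The most abundant genes of the axis were Cebpb and Maf, neither of them called. Cebpb, a factor of inflammatory gene control, had 235 and 233 CPM in mCDC and 285 and 335 CPM in vehicle muscles, and its log2 fold change of -0.41 did not reach 1.5-fold.

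Next to Trem2 and Gpnmb stood the genes that macrophages use with them, the TREM2 adaptor, cathepsins, lysosomal membrane proteins and lipid carriers. Of 23 tested genes 0 were called higher and 1 lower (Ctsk), with a median log2 fold change of -0.06. Ctsk, the cathepsin that cuts collagen, had 4.81 and 5.25 CPM in mCDC replicates 1 and 2 and 6.68 and 11.3 CPM in vehicle replicates 1 and 2. Vehicle replicate 2 was highest, and the log2 fold change of -0.84 was -0.41 and no longer called without it. The most abundant genes of the list, Lpl and Lamp1, are also expressed by muscle and fat cells. Their log2 fold changes were 0.01 and 0.05 (standard errors 0.16 and 0.14), and in each library they made up the larger share of the sum of the list, which lay between 3403 and 3707 CPM. mCDC replicate 2 was the highest library for 4 of the 23 genes and vehicle replicate 2 for 11. Cd63, 1 of the 4 and a tetraspanin of late endosomes and lysosomes that was picked from this list after its values were seen, had its highest level in mCDC replicate 2, as Cd68 and Gpnmb did. It had 153 and 250.4 CPM in mCDC replicates 1 and 2, against 137 and 149.6 CPM in the vehicle pair. Its log2 fold change of 0.50 was not called with all libraries and was called without mCDC replicate 1.

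Around Cd163, Mrc1 and Folr2, the list of tissue-resident macrophage genes had 14 tested members, of which 0 were called higher and 1 lower (Stab1), with a median log2 fold change of -0.13. Stab1 encodes stabilin-1, a scavenger receptor of resident macrophages and of sinusoidal endothelium. It had 8.48 and 10.1 CPM in mCDC and 10.3 and 20.7 CPM in vehicle replicates 1 and 2, so that vehicle replicate 2 stood alone. Its log2 fold change was -0.74 with all libraries, -0.15 without vehicle replicate 2 and -0.62 without mCDC replicate 1, called in neither of these smaller fits. Gas6 and Selenop (listed as Sepp1), the most abundant genes of this list, were not called.

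Among the other genes of the whole lineage, 28 of 31 could be tested, 0 were called higher and 1 was called lower, and 23 had a log2 fold change below 0, with a median of -0.25. Vehicle replicate 2 was the highest library for 22 of the 28 genes, and without it the median of the list was 0.12. Sirpa and Tlr2, the most abundant, were not called. Of 16 genes of monocytes and inflammatory macrophages only 5 could be tested and 0 were called, with a median log2 fold change of -0.55 that was 0.46 without vehicle replicate 2. Ly6c1 and Vcan led this list in level, and Ly6c1 is also a gene of endothelial cells. Of 15 genes of alternative activation 8 could be tested and 0 were called, with a median of -0.19 and with Tgm2 and Stat6 most abundant.

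Markers of other cells moved with these results. All 9 tested endothelial markers and all 9 of fibro-adipogenic progenitors had a log2 fold change below 0, beside 51.6% of all tested genes. Vwf among the first and Pdgfra and Lum among the second were called lower, beside 2.74% of all tested genes. Their adjusted p by edgeR's quasi-likelihood test was 0.619, 0.714 and 0.626. The list medians of -0.48 and -0.41 turned to 0.13 and 0.05 without vehicle replicate 2. The red blood cell list summed to 720 CPM in vehicle replicate 2 and to between 392 and 454 CPM in the others. Of this list Hba-a2 was called lower (adjusted p = 0.200 by edgeR's quasi-likelihood test). It was high in both vehicle libraries, at 28.6 and 31.7 CPM, against 14.5 and 14.8 CPM in mCDC muscles. The most abundant genes of these lists were Cdh5 and Egfl7 for endothelium, Dcn and Col3a1 for fibro-adipogenic progenitors and Hba-a1 and Hbb-b1 for red blood cells, none of them called. Lyz2, Csf1r, Trem2 and most genes of the further macrophage lists were highest in vehicle replicate 2. The part of vessel, connective tissue and blood content in the macrophage results was not tested. What was measured is that the differences of Lyz2 and Trem2 had the opposite sign without that library, that Csf1r was no longer called, and that Cd163 differed more without it. Neutrophils also express Lyz2 and Itgam. Over the 11 neutrophil markers, 10 of them listed in the table, the sum was 6.82 and 6.30 CPM in mCDC and 5.69 and 7.35 CPM in vehicle replicates 1 and 2, mostly Cxcr2 and Csf3r, and Mpo and Camp had no count in any library.

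**Figure D4:**
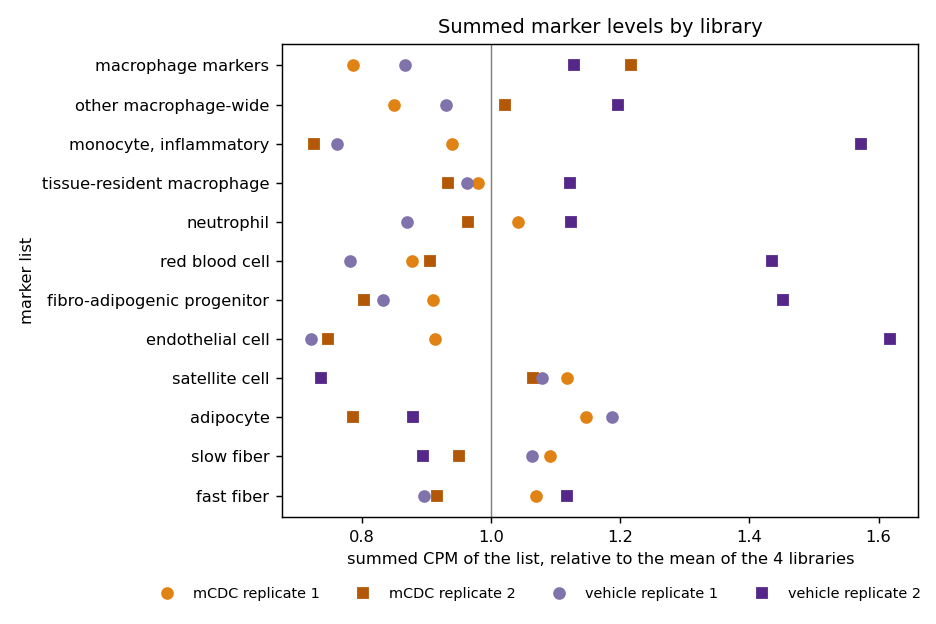
Summed CPM of each marker list in the 4 libraries, divided by the mean of the 4 libraries (vertical line at 1.0), with mCDC libraries in orange, vehicle libraries in purple, circles for replicate 1 and squares for replicate 2. Vehicle replicate 2 is highest for the endothelial (317 CPM), fibro-adipogenic (658 CPM), red blood cell (720 CPM) and monocyte (62.2 CPM) lists. For the 10 macrophage markers mCDC replicate 2 (94.4 CPM) is highest. The adipocyte sum is mostly Car3 (8756 of 8894 CPM in vehicle replicate 1).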

How the data were processed

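RNA from 4 soleus muscles of *mdx* mice, 2 given mCDCs and 2 given vehicle, was sequenced as single-end reads. The authors aligned them to UCSC transcripts using Bowtie 2 (version 2.1.0 in the submitters' processing notes, which also name mm10, the UCSC name of GRCm38) and estimated expected counts per gene with RSEM (1.2.15). The deposited expected counts were not normalized and 15.7% were not whole, since RSEM divides ambiguous reads among transcripts; they were rounded here. Sources differ on the library kit: the sample records name TruSeq Stranded mRNA and the methods name xGen Broad-Range, and the use of strand in counting is not given in the sources used here.

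Testing used edgeR 4.0.16 in R 4.3.3 with filterByExpr, TMM scaling and the quasi-likelihood fit with legacy set to FALSE, without covariates, and Benjamini-Hochberg adjustment over all genes tested. Standard errors are the absolute log2 fold change over the square root of F. Alternatives were DESeq2 1.42.0, other edgeR tests, size factors and filters, a replicate block, an offset for transcript length and GC content, and omission of each library, where a lone sample is assumed to vary like the other group. The procedure was tested on simulated data. Gene positions and promoters are from RefSeq (GRCm38.p6), transcripts and lengths from GENCODE M21. The markers and the other lists were chosen with earlier results of these data known. All 10 markers are named, and from each other list the called genes and the 2 with the highest mean CPM, with Lyz1 as the near-identical copy of Lyz2. The values of 2 called genes of these lists are not reported here. With 2 muscles a group the intervals are wide, and counting intervals cover counting error only.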

Additional observations from a re-analysis of the deposited data

How the results depend on the processing

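Leaving out each library in turn moved the counts most. Genes called higher ranged from 112 to 396 and genes called lower from 237 to 834, against 172 and 374 with all libraries. Markers called higher ranged from 0 to 2 and called lower from 0 to 3, the median log2 fold change of the markers from -0.30 to 0.18, and genes of the other macrophage lists called higher from 0 to 4 and called lower from 1 to 22. The sign turned for Mrc1 (-0.20 to 0.048), Lyz2 (-1.10 to 0.13), Itgam (-0.36 to 1.11), Lgals3 (-0.52 to 0.085), Gpnmb (-0.14 to 1.06), Trem2 (-1.14 to 0.52) and Folr2 (-0.44 to 0.22), while Cd68 (0.27 to 2.16), Cd163 (-0.80 to -0.18) and Csf1r (-0.96 to -0.30) kept theirs. With all 4 libraries, DESeq2 called 0 markers higher and 0 lower, and without a filter on low counts 0 were lower (Csf1r at -0.67). Over the 10 markers and 9 alternatives with all libraries, 85 of 90 values kept their direction and their side of the thresholds, 4 lost the call (Cd68 with DESeq2, and Csf1r with DESeq2, without a filter and with the replicate block) and 1 changed sign. Removal of the length and GC trend turned Mrc1 from -0.09 to 0.072. The cause of these changes was not tested. Across tested genes, deviations of same-numbered libraries had a correlation of -0.04. With 2 libraries a group this cannot show whether same-numbered mice shared a cage or day. With the replicate number as a block, 0 markers were called lower (Csf1r at -0.64), 0 genes of the other lists were called higher, and Cd68 was called at 1.31. Low counts limit Trem2 and Folr2, and 2 libraries a group limit every marker.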

Other observations

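Markers of other leukocytes had low levels, as the defining macrophage genes did, and these levels do not rank the cell types by number. The T and NK cell list summed to between 0.873 and 1.05 CPM per library, with Cd8a and Cd3d highest, and 3 of its genes had no count in any library. The B and plasma cell list summed to between 1.22 and 2.22 CPM, led by Mzb1 and Jchain (listed as Igj), and the dendritic cell list to between 3.82 and 5.71 CPM, led by Zbtb46 and Xcr1. None of the tested genes of these 3 lists was called by edgeR, and only 6 genes of them were tested. In the mast cell and eosinophil list, which summed to between 2.01 and 3.31 CPM, Kit and Mcpt4 led. Kit, the stem cell factor receptor that mast cells carry, was called lower, beside 2.74% of all tested genes. Kit had 0.379 and 0.503 CPM in mCDC replicates 1 and 2 and 0.839 and 1.49 CPM in vehicle replicates 1 and 2, a log2 fold change of -1.41 (adjusted p = 0.684 by edgeR's quasi-likelihood test) that was -0.94 and not called without vehicle replicate 2, and -1.21 and not called without mCDC replicate 1. With DESeq2 on all 4 libraries Kit was not called either, at a log2 fold change of -1.40.

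Among muscle cells, Pax7, the transcription factor of satellite cells, was called higher, beside 1.26% of all tested genes. It had 2.99 and 2.88 CPM in mCDC replicates 1 and 2 and 1.87 and 1.60 CPM in vehicle replicates 1 and 2. Its log2 fold change was 0.76 (adjusted p = 0.700 by edgeR's quasi-likelihood test). Chodl, a lectin gene on the same list, was called lower, beside 2.74% of all tested genes. It had 2.35 and 2.101 CPM in mCDC and 4.39 and 3.78 CPM in vehicle muscles. Its log2 fold change was -0.87 (adjusted p = 0.635 by the same edgeR test). In both genes the groups did not overlap, which held for 38.7% of all tested genes in either direction. The other 4 tested genes of the satellite cell list, with Sdc4 and Cdh15 the most abundant, were not called. No gene of the adipocyte list (led by Car3 and Adipor2), the slow fiber list (led by Myh7 and Tnnt1) or the fast fiber list (led by Myh2 and Atp2a1) was called by edgeR.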
